A study of Drosophila melanogaster with 6 samples.

Results

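The ecdysone receptor and the regulators that answer it first were followed in the heads of female flies kept on a normal or a high fat diet. The genes were taken by name: 10 were sought, and a gene counted when the platform annotation gave 1 or more probe sets (groups of short probes for a transcript) to that gene alone. Of the 10, 8 were measured, out of 11982 genes so named on the array: EcR, usp, Eip93F, Hr3, Hr4, ftz-f1, br and E23. Eip74EF and Eip75B had no probe set named for them here and were not analysed here. The 8 genes had 16 probe sets, and the one with the highest mean stood for its gene.

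Ecdysone is the steroid hormone of insects. Its active form, 20-hydroxyecdysone, binds a pair of nuclear receptors, EcR and its partner Usp, which sits on DNA and switches a cascade of transcription factors: early genes such as Eip74EF, Eip75B and br answer first, and Hr3, Hr4 and ftz-f1 follow in a relay that times moulting and metamorphosis. In the adult the hormone remains in use, in egg development in the ovary and, in the head, in sleep, the daily clock, memory and the fat body.

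All flies were mated females of w1118, a white-eyed laboratory strain. They were collected as virgins at 0 to 3 days of age and spent 48 hours with isogenic males. One group of 3 samples then had 7 days on normal diet, a yeast, sucrose and cornmeal medium, and the other 3 samples had 7 days on this medium plus 20% (w/v) coconut oil. The diets were given at 23 degrees C in most cases. Each sample pooled 25 to 50 whole heads, so brain, eye, fat body, muscle and blood cells were measured as one, and fewer cells of a type cannot be told apart from less RNA per cell. Each RNA sample was hybridised to 1 Affymetrix Drosophila Genome array. Signal is linear, and the deposited values share 1 trimmed mean on every array. Background, the level below which no transcript was counted as seen, lay between 15.2 and 21.8 signal units per array.

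Head tissue was clear on every array: all 7 measured neuronal markers, all 3 photoreceptor markers and all 4 glial markers were above background on the 6 arrays. Ovary markers were not absent, and they differed between the diets. The summed signal of 11 ovary genes was 12648, 2086 and 16034 on normal diet replicates 1, 2 and 3 and lay between 864 and 880 on the high fat arrays. osk, the organiser of the egg's germ plasm, had signals of 1664, 416 and 2124 under normal diet and of 13.6, 16.2 and 19.5 under high fat diet. In 10 of the 11 the diets did not overlap, all of them lower under high fat diet, beside 9.23% of all probe sets. yl, the oocyte's yolk receptor, and the maternal determinants nanos and bcd (the last 2 chosen after their values were seen) were not above background on any high fat array, and vas was not on any of the 6. Ovary signal was highest on normal diet replicates 1 and 3 and lower on replicate 2. Other marker lists differed less. The median log2 change, high fat minus normal diet, was 0.28 for neuron, 0.33 for photoreceptor, 0.09 for glia, 0.06 for fat body, 0.38 for muscle and 0.16 for hemocyte, beside -0.03 over all probe sets.

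No gene of the set passed the test between diets, and 7 of the 8 were well measured, above background on all 6 arrays. By limma, fitted to all 18769 probe sets with Benjamini-Hochberg adjustment, 0 of the 8 had an adjusted p under 0.05, as did 0% of all probe sets. At an unadjusted p under 0.05 there were 2 of 8, Hr4 (higher mean under high fat diet) and E23 (lower mean), beside 7.86% of all probe sets. These 2 genes alone had no overlap between the 3 values of each diet, beside 17.7% of all probe sets. The probe set that stands for Hr4 had the highest mean only through its high fat values. The place of Hr4 in these counts rests on that choice. Its other probe sets had an unadjusted limma p of 0.144 and 0.898, and in each the diets overlapped. Under high fat diet 3 of the 8 means were higher and 5 lower, and the median log2 change of the 8 was -0.08. When each array was centred on its own median, which moved the median of all probe sets from -0.03 to 0.23, the split was 5 higher and 3 lower.

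**Figure D1:**
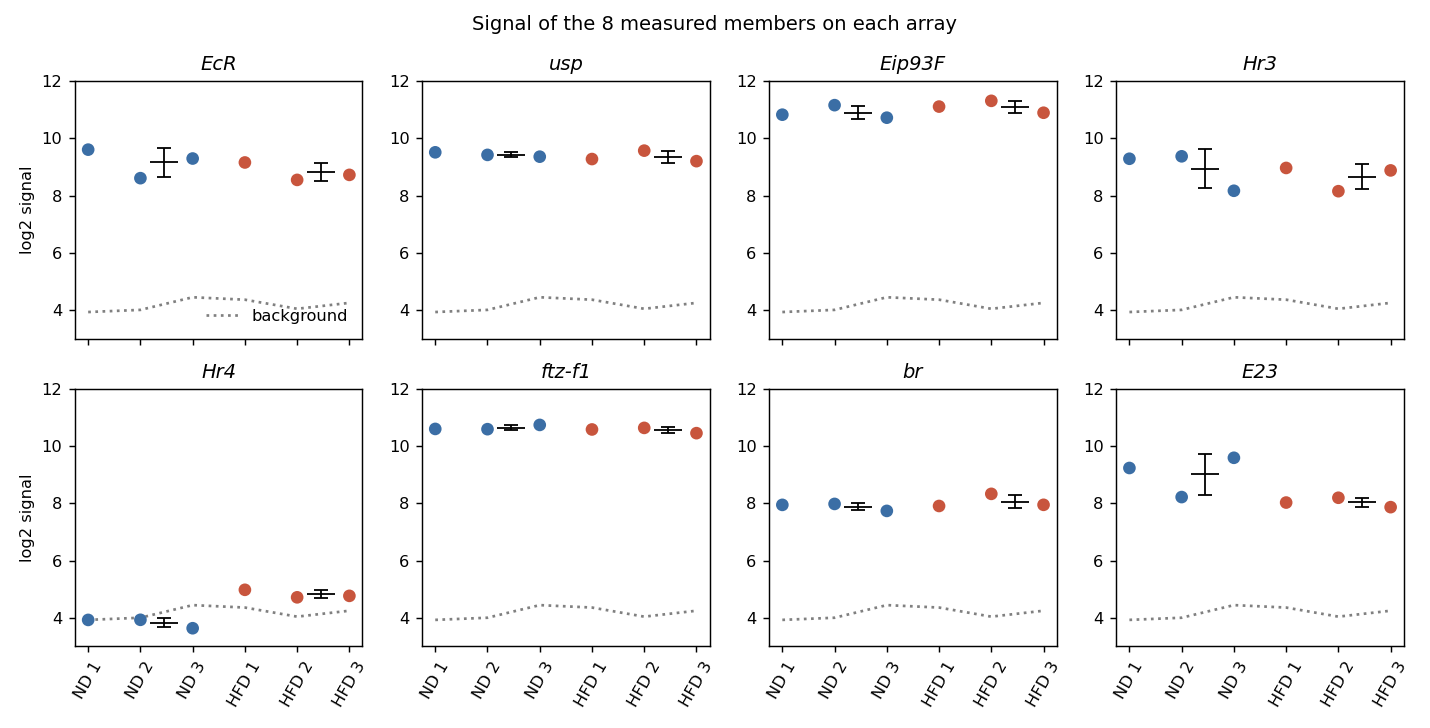
Log2 signal of the probe set that stands for each of the 8 genes, on 3 normal diet (ND, blue) and 3 high fat diet (HFD, red) arrays, with the mean ± SD of each diet in black and the background of each array as a dotted line. E23 is highest on ND 1 and ND 3, Hr4 is at background under normal diet, and in the other 6 genes the diets overlap.

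EcR, the hormone-binding partner in the receptor, varied widely within each diet. Its signal was 777, 390 and 627 under normal diet and 570, 374 and 422 under high fat diet, on average 28.2 times background. Normal diet replicates 1 and 3 were the highest of the 6, and normal diet replicate 2 lay near the lowest of the high fat arrays. Mean log2 signal was 9.17 ± 0.51 under normal diet and 8.81 ± 0.31 under high fat diet (SD, n = 3 each), a log2 change of -0.36 with a 95% interval from -1.17 to 0.45 (limma adjusted p = 0.720). The within-diet SD of EcR, 0.42, was larger than that of 91.4% of the probe sets that were above background throughout. The 2 highest values were from the arrays with the most ovary signal. A fit without them, chosen after seeing the data, left 1 normal diet array and gave a log2 change of 0.20. Leaving out the highest normal diet values raises the change by construction. With 1 array left out the change lay between -0.64 (without normal diet replicate 2, adjusted p = 0.429) and -0.14 (without normal diet replicate 1). The part of ovary RNA in this result was not tested. The EcR probe set was of the kind Affymetrix marks as matching several transcripts, and it does not separate the receptor's isoforms.

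usp encodes the partner in the receptor, the fly's counterpart of the vertebrate retinoid X receptors. It was steady across the arrays, with signals of 729, 685 and 656 under normal diet and 619, 759 and 588 under high fat diet. The highest and the 2 lowest values were all from high fat arrays, so the diets overlapped in full. The log2 change was -0.08 with a 95% interval from -0.45 to 0.29 (limma adjusted p = 0.873), and with median centring it was 0.19. EcR and usp thus differed in spread: the SD within diets was 0.42 log2 units for EcR and 0.15 for usp, the median over probe sets above background being 0.17.

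br, the Broad complex of zinc finger proteins that marks the pupal stage, was read by 5 probe sets. The one with the highest mean gave signals of 247, 253 and 213 under normal diet and 240, 322 and 247 under high fat diet, 14.0 times background on average. Apart from high fat diet replicate 2, the values of the diets lay in one range. The log2 change was 0.18 (95% interval -0.25 to 0.60, limma adjusted p = 0.743). High fat diet replicate 2 was also the array with the highest 3'/5' ratio of the Act5C actin control, a measure of RNA integrity, at 20.4 against 10.5 to 13.2 on the others, and without it the change was 0.04. Its part in the value was not tested.

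The other br probe sets disagreed with one another in sign. The second had signals of 216, 226 and 194 against 228, 190 and 220, a log2 change of 8.59e-04 with an interval from -0.34 to 0.34. The third was dimmer and scattered, between 23.4 and 57.5 over all arrays (log2 change -0.31, SE 0.41). The next, near background, had signals of 15.8, 25.8 and 18.5 under normal diet and 35.4, 25.9 and 29.4 under high fat diet. In this one the diets did not overlap, by a margin of 25.8 against 25.9, and it was below background on normal diet replicate 3 (log2 change 0.61, SE 0.24, limma adjusted p = 0.610). The dimmest was above background on 1 array of each diet. The bright pair of probe sets had intervals that include 0 and reach no further than 0.60.

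Eip93F, known as E93, is a factor of the end of metamorphosis that directs adult differentiation and larval tissue death. It was among the clearest of the set, 114 times background on average, with signals of 1812, 2284 and 1685 under normal diet and 2206, 2536 and 1901 under high fat diet. The highest value was from a high fat array and the lowest 2 from the normal diet, with the rest interleaved. Its log2 change was 0.20 (95% interval -0.27 to 0.67, limma adjusted p = 0.729). Its second probe set had signals of 205, 216 and 204 against 233, 167 and 219, with a log2 change of -0.03 (95% interval -0.45 to 0.39). The change of the first probe set was 0.33 without normal diet replicate 2 and 0.31 without high fat diet replicate 3. It was 0.11 without normal diet replicate 3 and 0.10 without high fat diet replicate 2. Without normal diet replicates 1 and 3, which leaves 1 normal diet array, it was -0.05. With median centring it was 0.47.

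Hr3, an orphan nuclear receptor of the ROR family that acts after the first ecdysone response and induces ftz-f1, had the widest spread within diets of the 8. Its signals were 623, 661 and 287 under normal diet and 499, 284 and 470 under high fat diet. One array of each diet, normal diet replicate 3 and high fat diet replicate 2, was at about the same low level, and the other 4 were clearly higher. The within-diet SD of 0.57 was larger than that of 96.3% of the probe sets above background. The log2 change was -0.28 with a 95% interval from -1.34 to 0.79 (limma adjusted p = 0.844). With 1 array left out the change was -0.66 without normal diet replicate 3 and -0.43 without high fat diet replicate 1. It was -0.10 and -0.06 without normal diet replicates 1 and 2, and -0.02 without high fat diet replicate 2. Without normal diet replicates 1 and 3, which leaves 1 normal diet array, it was -0.71. High fat diet replicate 2 is the array with the Act5C 3'/5' ratio of 20.4, whose part in the Hr3 values was not tested, nor was that of ovary RNA.

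Hr4, a nuclear receptor of the same relay that in larvae links the ecdysone response to growth and to the shutting down of early genes, was at the edge of detection. The probe set with the highest mean had signals of 15.2, 15.2 and 12.4 under normal diet, not above background on any array, and of 31.5, 26.3 and 27.2 under high fat diet, above background on all 3. It had the highest mean through its high fat values alone. Under normal diet its mean log2 signal was 3.83, against 4.35 for the next Hr4 probe set. With normal diet values not above background, only a bound can be given, and this probe set was at least 1.62-fold higher under high fat diet. The bound carries no interval. Mean log2 signal was 3.83 ± 0.17 under normal diet and 4.82 ± 0.14 under high fat diet (limma adjusted p = 0.312). Of all probe sets, 0.304% had a smaller unadjusted p (9.63e-04 for Hr4). The other Hr4 probe sets did not show this difference. One had signals of 18.0, 22.3 and 21.3 against 20.0, 15.7 and 14.2, above background on 2 normal diet arrays and 0 high fat arrays (log2 change -0.31, SE 0.18). The last was below background on every array. With the mean of all Hr4 probe sets taken for the gene, the log2 change was 0.20 (SE 0.23).

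ftz-f1, a nuclear receptor that makes tissues able to answer the next ecdysone pulse, was bright in both of its probe sets, which gave different values. The brighter gave 1554, 1544 and 1712 under normal diet and 1533, 1592 and 1402 under high fat diet. It was the steadiest of the set, with a within-diet SD of 0.09, and its log2 change was -0.09 (95% interval -0.39 to 0.21, limma adjusted p = 0.819), or 0.18 with median centring. The second gave 1252, 986 and 1051 under normal diet and 781, 716 and 791 under high fat diet, so that every normal diet array lay above every high fat array. Its log2 signal was 10.09 ± 0.18 and 9.57 ± 0.08, a ratio of 1.43 in favour of the normal diet. The log2 change of -0.52 (95% interval -0.87 to -0.16) had an unadjusted p of 0.0129 and did not pass over all probe sets (limma adjusted p = 0.610), beside 9.23% of all probe sets without overlap and lower under high fat diet. The highest value was on normal diet replicate 1, one of the arrays rich in ovary markers, and the part of ovary RNA in these values was not tested. The difference between the 2 probe sets was not tested either.

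E23, an ABC transporter that is induced by ecdysone and, when made in excess, damps the response to it, had the largest measured difference of the genes above background on all arrays. Its signals were 603, 298 and 772 under normal diet and 261, 293 and 234 under high fat diet. Normal diet replicates 1 and 3 were far above the rest, while replicate 2 barely exceeded the highest high fat array, 298 against 293. Mean log2 signal was 9.02 ± 0.71 under normal diet and 8.03 ± 0.16 under high fat diet (SD, n = 3 each), 1.98 times as much under normal diet. The log2 change was -0.99 (SE 0.38, 95% interval -1.95 to -0.02), which did not pass (unadjusted p = 0.0474, limma adjusted p = 0.610). E23 ran with the ovary markers over the arrays, highest where osk was highest. Without normal diet replicates 1 and 3, which leaves 1 normal diet array, the log2 change was -0.19. Leaving out the highest normal diet values raises the change by construction. Without normal diet replicate 2 the log2 change was -1.38 (limma adjusted p = 0.0879). The part of ovary RNA in the E23 values was not tested.

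**Figure D2:**
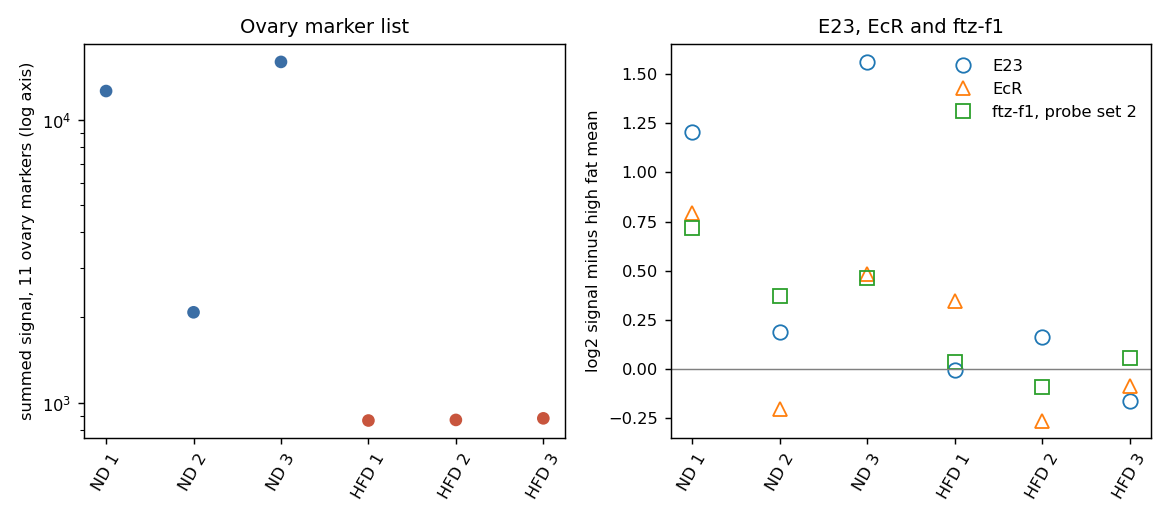
Left, the summed signal of 11 ovary markers on each array, on a log axis, with normal diet (ND) in blue and high fat diet (HFD) in red. Right, the log2 signal of E23, EcR and the second ftz-f1 probe set on each array minus its high fat mean. E23 and the ovary markers are both highest on ND 3 and ND 1, and on ND 2 E23 and EcR lie in or next to the high fat range while the second ftz-f1 probe set lies above it.

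**Figure D3:**
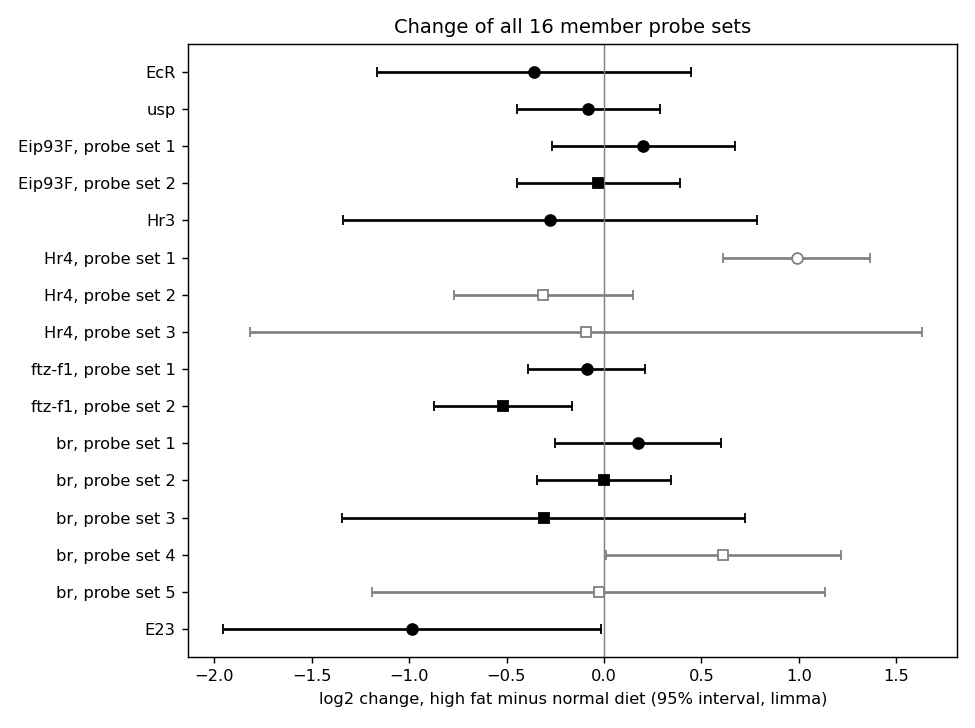
Log2 change with its 95% interval by limma for all 16 probe sets of the 8 genes, numbered within a gene from the highest mean down. Circles stand for the gene, squares are its other probe sets, and open grey symbols were not above background on all 6 arrays. Intervals clear of 0 before adjustment are those of the first Hr4, second ftz-f1, br (numbered 4) and E23 probe sets, and none passed after adjustment.

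Over the 16 probe sets the sizes of change that these data leave possible differed. For usp, both Eip93F probe sets, the brighter ftz-f1 and the 2 bright br probe sets, the 95% intervals reached no further from 0 than 0.67 log2 units, the upper end for Eip93F. For EcR, Hr3 and E23 they reached down to -1.17, -1.34 and -1.95, so that for these genes a change of 1 log2 unit downward lay within the interval. Before adjustment, 4 of the 16 probe sets had an unadjusted p under 0.05, beside 7.86% of all probe sets, and in the same 4 the diets did not overlap, beside 17.7%.

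The genes most like each member over the 6 arrays were sought among 8326 genes above background on all of them, by Pearson correlation of log2 signal. With so many genes and 6 arrays high values are common, and the correlations are given as a description. The 3 nearest to E23 were rod, a kinetochore protein, Slbp, which binds histone mRNA, and Pym, a factor of exon junction complexes (r = 0.999 for each, 6 arrays). rod had signals of 145, 77.0 and 192 under normal diet and 68.7, 77.6 and 63.2 under high fat diet, the same order of arrays as E23 apart from normal diet replicate 2 and high fat diet replicate 2, which were about level in both genes. EcR ran closest with CG6144 (r = 0.992), Bap60, a subunit of the Brahma chromatin remodelling complex (0.980), and Cul2, a cullin scaffold of ubiquitin ligases (0.978). Bap60 had signals of 804, 443 and 670 under normal diet and 572, 420 and 516 under high fat diet, like EcR highest on normal diet replicates 1 and 3. For Hr3 they were slp2, Dis3 and Ugt301D1 (r = 0.988, 0.987 and 0.984), for br Bsg, Hdc and MED10 (0.992, 0.982 and 0.981) and for ftz-f1 CG3894, CG1737 and Phb2 (0.983, 0.981 and 0.979). For Eip93F they were CG5961, sau and GluRIIE (0.978, 0.978 and 0.975), and for usp bgcn, ics and san (0.963, 0.958 and 0.958).

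Genes that make the hormone were mostly near or below background in these heads. Of 9 genes of ecdysteroid synthesis, 0 passed in either direction (7 means higher, 2 lower under high fat diet, median log2 change 0.12). Most of these means came from signals near or below background. Only 2 genes were above background on all arrays, with 2 means higher and 0 lower (median 0.09). The 2 above background on all arrays were shd, the P450 that turns ecdysone into 20-hydroxyecdysone in target tissues, and Npc1a, a sterol transporter. shd had signals of 62.3, 64.4 and 71.7 under normal diet and 77.2, 77.7 and 53.9 under high fat diet (log2 change 0.06, SE 0.19). Npc1a had signals of 2024, 1867 and 1589 against 1898, 1951 and 2101 (log2 change 0.12, SE 0.14). In both genes the diets overlapped. The gland enzymes nvd, spok and sro were below background on every array.

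Most genes of the hormone's transport and breakdown were well measured. Of 5 genes, 4 were above background on all arrays and 0 passed. Those 4 had 2 means higher and 2 lower (median 0.13). Eo was not above background on any array, and with it the list had 2 means higher and 3 lower (median -0.04). The diets did not overlap in 3 of the 5, beside 17.7% of all probe sets. Cyp18a1 and DopEcR were named for the smallest unadjusted p in the list, a choice that favours genes without overlap. Cyp18a1, the P450 that inactivates 20-hydroxyecdysone, had signals of 1761, 1551 and 1510 under normal diet and 1340, 1096 and 1189 under high fat diet. The diets did not overlap, as in 9.23% of all probe sets lower under high fat diet (log2 change -0.41, SE 0.14, unadjusted p = 0.0283, limma adjusted p = 0.610). DopEcR, a membrane receptor for both dopamine and ecdysteroids, had signals of 1873, 1921 and 1617 against 2180, 2184 and 2294, again without overlap and with the high fat diet above (log2 change 0.30, SE 0.12, limma adjusted p = 0.610). Neuronal markers had a median change of similar size, 0.28, with all 7 means higher under high fat diet and 5 of 7 without overlap, beside 8.46% of all probe sets in that direction, and their summed signal was 8357 to 10453 under normal diet and 11205 to 12116 under high fat diet. The part of neuronal RNA in the DopEcR value was not tested. Oatp74D, the importer that brings ecdysone into cells, chosen after its values were seen, had signals of 1350, 1607 and 1253 against 1283, 1371 and 1430 (log2 change -0.04, SE 0.14).

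Receptor cofactors, 9 genes and all above background on every array, had 1 mean higher and 8 lower under high fat diet (median -0.13, 0 passed). Of all probe sets, 54.3% had a lower mean. Such splits depend on the scaling, as median centring moved the median of all probe sets from -0.03 to 0.23. The splits of this and the other pathway lists were not counted again with it. The 2 with the smallest p were rig and Utx. rig, a cofactor needed for the response of tissues to ecdysone, had signals of 451, 233 and 474 under normal diet and 241, 227 and 242 under high fat diet, high on normal diet replicates 1 and 3 alone (log2 change -0.64, SE 0.31, limma adjusted p = 0.611). Utx, a histone demethylase, had signals of 590, 423 and 512 against 439, 380 and 477 (log2 change -0.23, SE 0.18). Like E23 and the summed ovary markers, rig was highest on normal diet replicates 1 and 3. On normal diet replicate 2 rig lay within its high fat range, while E23 and the summed ovary markers lay above theirs. The part of ovary RNA in the rig values was not tested.

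The other nuclear receptors, 15 genes with 11 above background throughout, split into 8 higher and 7 lower means (median 0.09, 0 passed). The diets did not overlap in 3 of the 15, beside 17.7% of all probe sets. Hr38 and knrl were named for the smallest unadjusted p in the list, a choice that favours genes without overlap. Hr38, the fly's NR4A receptor, which is induced by neuronal activity and pairs with Usp, had signals of 226, 252 and 228 under normal diet and 346, 308 and 315 under high fat diet. Every high fat array lay above every normal diet array, as in 8.46% of all probe sets (log2 change 0.46, SE 0.12, unadjusted p = 0.0106, limma adjusted p = 0.598). The neuronal markers moved the same way, by a median of 0.28, and their part in the Hr38 value was not tested. knrl, a knirps-family receptor, had signals of 187, 171 and 142 against 211, 230 and 207, likewise without overlap (log2 change 0.38, SE 0.15, limma adjusted p = 0.610).

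Other genes known to be induced by ecdysone had 10 higher and 24 lower means among 34 measured (median -0.17, 0 passed). The diets did not overlap in 6 of the 34, beside 17.7% of all probe sets. ImpE1 and chinmo were named for the smallest unadjusted p among genes above background on all arrays of a diet. That choice favours genes without overlap. In the list 16 genes were above background on all arrays, with 6 higher and 10 lower means and a median of -0.04, and 12, most of them larval salivary gland genes of the Eig71E and Sgs families, were below it on all 6. ImpE1, a membrane protein of imaginal discs, had signals of 130, 119 and 97.9 under normal diet and 181, 208 and 152 under high fat diet, without overlap (log2 change 0.64, SE 0.18, unadjusted p = 0.0166, limma adjusted p = 0.610). chinmo, a BTB zinc finger factor of neuronal timing and adult stem cells, had signals of 824, 848 and 744 against 1036, 999 and 922, also without overlap (log2 change 0.29, SE 0.12, limma adjusted p = 0.610). Dronc, an initiator caspase induced by ecdysone and chosen after its values were seen, went the other way, with 230, 179 and 409 against 173, 155 and 141 (log2 change -0.72, SE 0.33), and its highest value was on normal diet replicate 3, the array with the most ovary signal, whose part in the value was not tested.

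**Figure D4:**
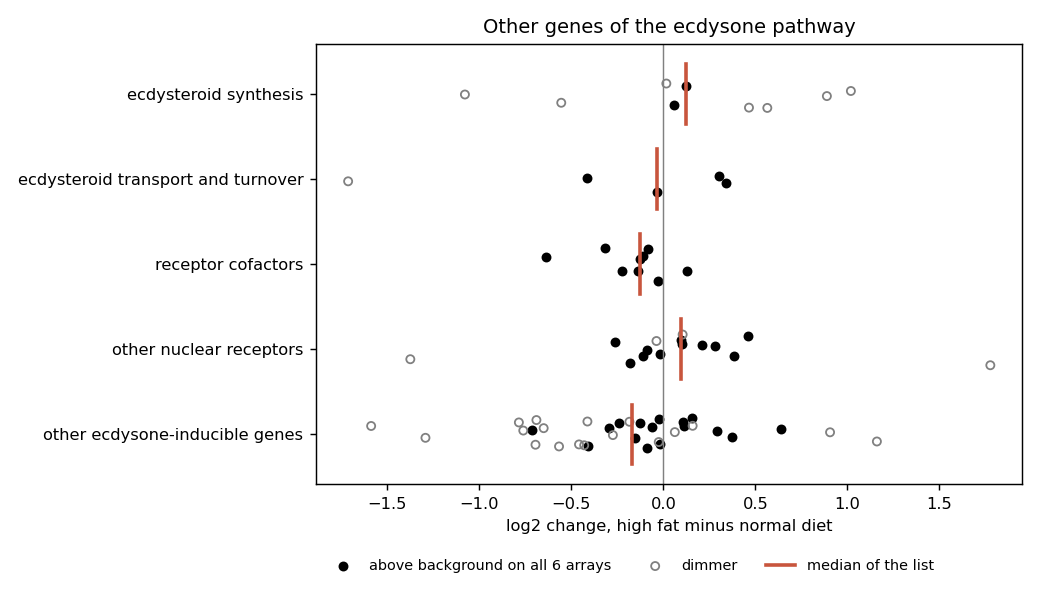
Log2 change, high fat minus normal diet, of each measured gene in 5 further lists of the ecdysone pathway, with the median of each list as a red bar. Filled points were above background on all 6 arrays and lie nearer to 0 as a group, the widest changes belong to dimmer genes (open), and 0 genes passed.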

How the data were processed

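In all 6 arrays, 3 per diet, were compared. Per the submitters' processing notes the deposited signal intensities came from Affymetrix Expression Console, its version and summarization method being not given in the sources used here. Per the deposited values they are linear, with a mean of 500 on each array after trimming 2% at each end. Values below 1 were set to 1 and log2 was taken. The 183 control probe sets were left out. limma 3.58.1 in R 4.3.3 (lmFit, eBayes) was fitted to the other 18769 with diet as the only term, adjusted by Benjamini-Hochberg, and tested on simulated data. Background was the 95th percentile of 50 controls named for proteins of other organisms, and the number of arrays limits the precision. For bounds, dim values below background were raised to it, array by array.

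The members, gene lists and alternatives were chosen with earlier results of these data known. Named were all members, 2 genes per pathway list (smallest unadjusted p among genes above background on all arrays of a diet), the first markers of each cell type, and the 3 genes nearest to each member. Alternatives covered normalization, floor, dim probe sets, replicate block, moderation, probe set choice and each array left out. One, without normal diet replicates 1 and 3, was chosen after seeing the data.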

Additional observations from a re-analysis of the deposited data

How the results depend on the processing

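In every alternative, 0 members had an adjusted p under 0.05, and over all members and alternatives the smallest was 0.0879, for E23 without normal diet replicate 2. Signs turned in 4 cases: usp (0.19) and ftz-f1 (0.18) with median centring, and EcR (0.20) and Eip93F (-0.055) without normal diet replicates 1 and 3, a fit that rests on 1 normal diet array assumed to vary like the high fat ones. The median change of the 8 was 0.18 with median centring, against 0.23 for all probe sets. Members without overlap numbered 1 with quantile normalization, 1 with median centring, and 2 to 4 with 1 array left out (4 without normal diet replicate 2 and 4 without high fat diet replicate 2). With fewer arrays the diets separate more easily. The share of all probe sets without overlap was not computed under these settings, so the counts cannot be set against it. Over all probe sets limma called 6 with dim ones left out, 26 with trend and robust moderation, and 0 to 167 with 1 array left out, the 167 being without normal diet replicate 2; the causes were not tested. The share of all probe sets higher in mean under high fat diet was 45.7% as deposited and 72.0% with median centring. The log2 change of E23 ranged from -1.38 to -0.19 over the alternatives. Whether replicate numbers pair the arrays was not settled. Same-numbered deviations correlated at -0.07, 1.81e-04 and 0.03, and of the 6 arrays high fat diet replicate 3 alone correlated best with its own number. Deviations from a diet mean constrain one another, so these correlations cannot decide it. With the replicate block, 0 probe sets and 0 members were called. Signal near background limits Hr4 and the dim br probe sets.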
